A study of Homo sapiens with 6 samples.

Results

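Cytochrome P450 (CYP) genes were followed in the human cell line MDA-MB-468. The line comes from a basal-like breast cancer without estrogen, progesterone or HER2 receptors. Members were the rows of the deposited files whose symbol is CYP, a family number, a subfamily letter and a gene number, without CYP1A1, CYP1B1 and CYP51A1. This gave 52 of the 45019 rows. CYP1A2 fits the rule and is included. Of the 52 members, 24 reached a mean of 10 normalized reads over the libraries and were tested, 15 lay above 0 but under 10, and 13 were listed at 0 in every library. Over all rows, 16409 reached that mean.

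The untreated group has 3 samples, and the other group has 3 samples that received 100 µM DETA/NO, a slow nitric oxide donor, for 10 days. The study asked whether nitric oxide, through the RNA demethylase FTO, goes with changes in transcription. Per the labels' protocols, cells under DETA/NO were replated every 48 h, with 4 h to adhere before the next dose. They were pooled within a replicate. No replating schedule for the untreated cells is given in the sources used here, so replating and DETA/NO cannot be told apart. Replicates 1 and 2 of DETA/NO have files with the same values throughout. They count here as 1 library, named 1-2, which leaves n = 3 untreated against n = 2 with DETA/NO. Nothing in the labels states separate cultures, so p-values cover only library-to-library spread, which may be technical. The model is a single cell line with 1 dose and 1 time point.

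P450 enzymes are heme proteins that insert an oxygen atom into lipids, steroids, vitamins and drugs, taking electrons from P450 oxidoreductase in the endoplasmic reticulum or from ferredoxin in mitochondria. Nitric oxide is known to bind heme iron. Families differ in their substrates: CYP4 enzymes hydroxylate the end of fatty acid chains, and CYP26 enzymes break down retinoic acid. CYP27A1, CYP27B1, CYP7 and CYP39 enzymes act on sterols or vitamin D, and CYP27C1 acts on retinol. In breast tumours CYP4Z1 and CYP4X1 are known as abundant fatty acid P450s, and CYP27A1 makes a cholesterol metabolite that acts on the estrogen receptor.

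The heme of every P450 is held by a cysteine in a short signature near the end of the protein. The coding bases of this signature are shown for members whose changes are described in the next paragraphs, because they are the feature that these otherwise different enzymes share. Each is a stretch of 30 coding bases from GENCODE 29 (GRCh38), read 5′ to 3′, with the codon of the cysteine in capitals.
CYP4X1: ttctcagctggatcaaggaacTGCattggg
CYP4Z1: ttctcagctggattaaggaacTGCattggg
CYP4A11: ttctcaggaggatcaaggaacTGCatcggg
CYP4B1: ttctctgctgggcccaggaacTGCattggg
CYP4V2: ttctctgctggccccaggaacTGTataggt
CYP4F11: ttctcggcagggcccagaaacTGCatcggg
CYP27A1: tttggctatggggtccgggccTGCctgggc
CYP26B1: ttcggtggcggtgtccggaccTGCctgggc
CYP2J2: ttctcaataggaaagcgggcaTGCctcgga
CYP27B1: tttggctttggcaagcgcagcTGTatgggg

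The signature was found in 45 of the 48 members searched, and not in the letters of CYP8B1, CYP20A1 and CYP39A1. The cysteine is codon 454 in CYP4X1, 452 in CYP4Z1, 476 in CYP27A1 and 448 in CYP2J2. CYP4X1 and CYP4Z1, neighbours on chromosome 1, share 29 of the 30 bases. CYP4X1 and CYP4F11 share 23, CYP4X1 and CYP2J2 17, and CYP4X1 and CYP27A1 14.

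Most tested P450 genes were lower with DETA/NO. With limma and a Benjamini-Hochberg adjusted p under 0.05, 16 of the 24 were lower (66.7%), 3 were higher (12.5%) and 5 were not called. Of all 16409 genes tested, 21.7% were lower and 21.7% higher. The median log2 fold change was -0.34 over the 24 members and -0.00016 over all genes tested. At least a 2-fold fall was seen in 4 members, and in 1.58% of all genes tested: CYP4A11, CYP4Z1, CYP4X1 and CYP4F8. A fold change here is the difference of group means of log2(value + 1). The added 1 shrinks the change of low genes. A mean of logs also gives weight to a low library, such as DETA/NO library 1-2 of CYP4A11 with 2 reads. The CYP4A11 figure is therefore not a lower bound. CYP4A11 and CYP4F8 passed the filter only through their untreated libraries and had to be lower. The other 22 members had a mean of at least 10 in both groups: 14 of them were lower and 3 higher, with a median log2 fold change of -0.31.

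In 16 members both DETA/NO libraries lay below every untreated library and in 4 both lay above, while the groups overlapped in 4. Over all genes tested these shares were 30.8% below and 30.4% above. All 16 members called lower were among those that lay below. Summed over all members, the values were 12037, 12399 and 12824 in the untreated libraries, and 7660 in DETA/NO library 1-2 and 7744 in library 3. CYP4X1 alone made up 26.7% to 28.0% of the untreated sums and 17.8% and 16.6% of the DETA/NO sums.

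**Figure D1:**
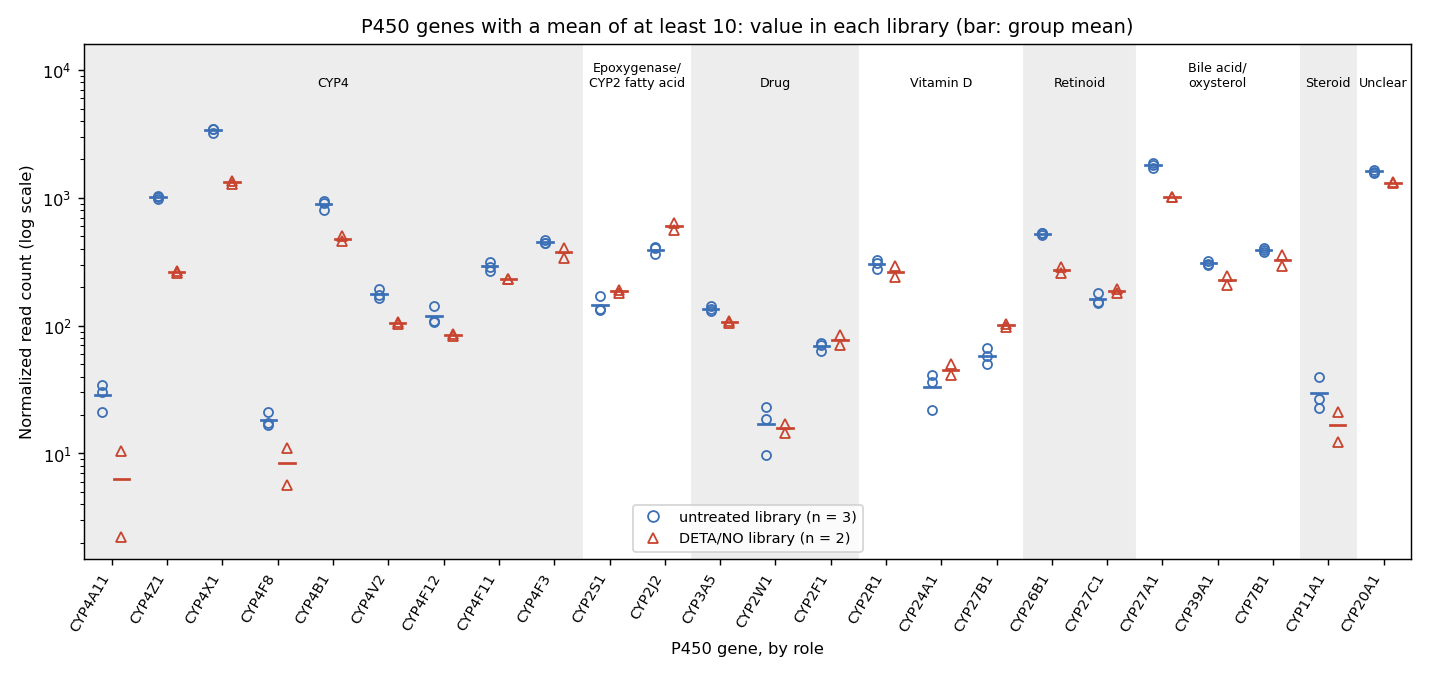
Normalized read count (log axis) of the 24 P450 genes with a mean of at least 10, grouped by role, in 3 untreated libraries (circles) and 2 DETA/NO libraries (triangles), with bars at the group means. All 9 CYP4 genes have their triangles below their circles, while CYP2J2, CYP2S1 and CYP27B1 have them above.

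Of the CYP4 genes, 7 had a mean of at least 10 in both groups and all 7 were lower, with log2 fold changes from -1.95 to -0.28 and a median of -0.75. CYP4A11 and CYP4F8 were also called lower, but the filter fixed their direction. The family has 12 members here. CYP4F2 and CYP4F22 lay under a mean of 10, and CYP4A22 was listed at 0. CYP4X1, an enzyme known to oxidize anandamide and the most abundant member, went from 3243, 3472 and 3430 normalized reads without treatment to 1361 and 1287 in DETA/NO libraries 1-2 and 3. Its group means were 3381 ± 122 (SD, n = 3) and 1324 ± 52.3 (SD, n = 2), a 2.55-fold fall (log2 fold change -1.35 ± 0.042 (SE), adjusted p = 3.86e-22). The groups were far apart relative to their spread.

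CYP4Z1, a fatty acid hydroxylase known for its expression in breast tumours, had 983, 1024 and 1033 in the untreated libraries and 258 and 266 in the DETA/NO libraries. This was a 3.87-fold fall from 1014 ± 26.5 to 262 ± 5.45 (log2 fold change -1.95 ± 0.067, adjusted p = 3.72e-21). Its libraries within a group were nearly level. Other genes, among them CYP4A22-AS1, cover 45.0% of the CYP4Z1 span but 0% of its exon bases. Of the 50-base stretches of CYP4Z1, 30.6% also occur in other genes, so that some of its reads could be shared.

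CYP4A11, which makes the vasoactive arachidonic acid product of omega-hydroxylation, was low: 34.4, 30.4 and 21.3 without treatment, 2.22 in DETA/NO library 1-2 and 10.4 in library 3. These DETA/NO values are 2 and 11 reads. The groups did not overlap, but the DETA/NO libraries lay 1.83 apart on the log2 scale. Its log2 fold change was -2.26 ± 0.429 (adjusted p = 1.65e-04) and -1.35 without library 1-2 (adjusted p = 0.00367). The adjusted p ran from 5.68e-09 to 0.0535 over 15 alternatives. Of its 50-base stretches, 36.5% also occur in other genes, most in CYP4A22.

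CYP4B1, a P450 of lung and airway known to activate plant and industrial toxins, had 809, 913 and 945 against 459 and 502, a 1.85-fold fall (log2 fold change -0.88 ± 0.069, adjusted p = 5.65e-12). CYP4V2, whose loss causes Bietti crystalline dystrophy of the retina, had 174, 165 and 192 against 106 and 103 (log2 fold change -0.75 ± 0.125, adjusted p = 9.21e-06). In both genes every DETA/NO library lay well below the lowest untreated library.

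Of the CYP4F genes, CYP4F11, CYP4F3 and CYP4F12 had smaller changes. CYP4F11, a hydroxylase of long-chain fatty acids and vitamin K, had 290, 270 and 313 against 230.5 and 229.8 (log2 fold change -0.33 ± 0.096, adjusted p = 0.0053). CYP4F3, which inactivates leukotriene B, had 446, 442 and 466 against 341 and 407 (-0.28 ± 0.082, adjusted p = 0.00715). CYP4F12, known to oxidize antihistamines, had 108, 107 and 142 against 83.1 and 85.5 (-0.48 ± 0.151, adjusted p = 0.00991). The groups were separate in all of these genes.

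CYP4F8, a prostaglandin hydroxylase, was near the filter, with 17.2, 16.7 and 21.3 against 11.1 and 5.70 (log2 fold change -1.10 ± 0.371, adjusted p = 0.0163). Of the CYP4F calls, CYP4F11 was kept in every alternative run. CYP4F3 lost its call without DETA/NO library 1-2 (log2 fold change -0.15, adjusted p = 0.253, with a range of 0.00101 to 0.253 over 16 alternatives). CYP4F12 lost it without untreated library 3 (adjusted p = 0.0878, range 0.00377 to 0.0878). CYP4F8 lost it without untreated library 3 (adjusted p = 0.0572), and also when DETA/NO library 3 was omitted (log2 fold change -0.67, adjusted p = 0.219, range 0.00673 to 0.219).

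Most CYP4 genes sit in 2 clusters, taken as at least 3 members less than 500 kb apart. The cluster on chromosome 1 (46757838 to 47149741, GENCODE 29 on GRCh38) holds CYP4B1, CYP4A11, CYP4X1, CYP4Z1 and CYP4A22, and its 4 tested members were all lower, CYP4A11 among them. The other tested gene there, the noncoding CYP4A22-AS1, was lower as well: 503, 514 and 529 against 167 and 200 (log2 fold change -1.49 ± 0.089, adjusted p = 5.65e-15). It covers 100% of the span of CYP4A22, but 0% of the exon bases of CYP4A22 lie in other genes. Annotation and strand setting of the counting are not given in the sources used here. How reads from this span were assigned is therefore not known.

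The CYP4F cluster on chromosome 19 (15508493 to 15934867) has 6 members. All 4 tested members were lower, CYP4F8 among them, as was the long noncoding RNA UCA1 that lies among them (log2 fold change -0.23, adjusted p = 0.0167). Of the 6 members of the CYP2A to CYP2S cluster, also on chromosome 19 (40843538 to 41207539), 2 were tested: CYP2S1 was higher and CYP2F1 was not called. In the CYP3A cluster on chromosome 7 the 1 tested member, CYP3A5, was lower, and in the CYP2C cluster on chromosome 10 no member reached a mean of 10. Members of 1 cluster are copies of each other and are not independent observations.

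Among the arachidonic acid epoxygenases and other CYP2 enzymes of long-chain fatty acids, the 2 tested genes were higher. CYP2J2, the main epoxygenase outside the liver, had 409, 362 and 408 in the untreated libraries and 638 and 557 in the DETA/NO libraries, a 1.52-fold rise (log2 fold change 0.60 ± 0.080, adjusted p = 2.25e-07). Both DETA/NO libraries lay well above the untreated range. CYP2S1, a P450 of epithelia, had 135, 132 and 172 against 191 and 181 (0.35 ± 0.126, adjusted p = 0.0228). Untreated library 3 lay close to the DETA/NO libraries.

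The CYP2S1 call was lost on omission of any 1 library other than untreated library 3, without which the adjusted p was 0.00202 (log2 fold change 0.47). It was 0.0943 without untreated library 1, 0.102 without untreated library 2, 0.123 without DETA/NO library 1-2 and 0.0509 without DETA/NO library 3, with a range of 0.00202 to 0.123 over 16 alternatives. The other members with this role were not tested: CYP2C8, for example, lay under 10, and CYP2C18, CYP2C19 and CYP2U1 were listed at 0.

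Of 13 drug-metabolizing P450s, 3 reached a mean of 10, 6 lay above 0 but under 10, and 4 were listed at 0. CYP3A5, which oxidizes steroids and many drugs, had 135, 142 and 129 against 109 and 104 (log2 fold change -0.34 ± 0.131, adjusted p = 0.0342). The groups were separate, but the call was lost without any 1 library other than untreated library 3, with adjusted p from 0.0695 without untreated library 1 to 0.135 without DETA/NO library 3 (0.107 without untreated library 2, 0.0796 without DETA/NO library 1-2). Over 16 alternatives it ran from 0.00685 to 0.162. CYP2F1, a lung P450, had 73.6, 63.8 and 71.2 against 84.2 and 70.3 (0.15, adjusted p = 0.519). CYP2W1, known from fetal gut and colorectal tumours, had 22.9, 9.81 and 18.5 against 14.4 and 17.1 (-0.04, adjusted p = 0.945). Both overlapped between groups.

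The vitamin D enzymes include the first hydroxylase of the pathway, the enzyme that forms the active hormone and the enzyme that destroys it. CYP27B1, which forms the hormone, had 58.3, 50.03 and 66.5 in the untreated libraries and 103 and 97.8 in the DETA/NO libraries, a 1.72-fold rise (log2 fold change 0.78 ± 0.172, adjusted p = 3.73e-04). The groups were separate. CYP24A1, which inactivates it, had 22.0, 41.2 and 36.0 against 49.9 and 40.8 (0.48 ± 0.250, adjusted p = 0.122), with overlap. CYP2R1, the first hydroxylase, had 309, 279 and 325 against 239 and 291 (-0.20 ± 0.099, adjusted p = 0.101), also with overlap. Without DETA/NO library 3 CYP2R1 was called lower (-0.34, adjusted p = 0.0204, range 0.0204 to 0.729 over 16 alternatives).

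CYP26B1, which breaks down retinoic acid and is itself known to be induced by it, had 529, 533 and 512 against 260 and 289. This was a 1.91-fold fall from 524 ± 10.9 to 275 ± 20.0 (log2 fold change -0.93 ± 0.080, adjusted p = 2.67e-11). Both DETA/NO libraries lay far below the untreated ones. CYP27C1, a retinol desaturase, had 152, 150 and 179.3 against 179.5 and 193 (0.22 ± 0.118, adjusted p = 0.143). Its DETA/NO libraries lay above the untreated ones, by a very small margin, and it was not called. CYP26A1 and CYP26C1 were listed at 0.

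The 3 tested sterol P450s were lower. CYP27A1, the mitochondrial sterol hydroxylase, had 1727, 1824 and 1876 in the untreated libraries and 1008 and 1024 in the DETA/NO libraries. The fall from 1809 ± 75.6 to 1016 ± 10.8 was 1.78-fold (log2 fold change -0.83 ± 0.048, adjusted p = 2.58e-15). CYP39A1, which hydroxylates an oxysterol of brain and liver, had 323, 298 and 306 against 208 and 246 (-0.45 ± 0.097, adjusted p = 3.35e-04). Neither gene had a DETA/NO value inside the untreated range.

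CYP7B1, the oxysterol hydroxylase that acts on the product of CYP27A1, had 378, 390 and 408 against 291 and 360 (-0.28 ± 0.089, adjusted p = 0.0127). The groups were separate by a small margin in DETA/NO library 3. Without library 1-2 its log2 fold change was -0.12 (adjusted p = 0.384), and without library 3 it was -0.43 (adjusted p = 0.00106, range 0.00106 to 0.384 over 16 alternatives).

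Of the steroid hormone enzymes, CYP11A1, which cleaves the cholesterol side chain, was the only one that reached a mean of 10. It had 26.8, 22.6 and 39.7 against 21.1 and 12.3 (log2 fold change -0.80 ± 0.304, adjusted p = 0.0332). DETA/NO library 1-2 lay just under the lowest untreated library. The adjusted p was 0.0566 without untreated library 1 and 0.179 without untreated library 3. It was 0.351 when DETA/NO library 3 was omitted (log2 fold change -0.44), with a range of 0.0095 to 0.351 over 15 alternatives. Other genes cover 29% of its exon bases. CYP20A1, a conserved P450 with no settled substrate, had 1565, 1601 and 1659 against 1327 and 1309 (-0.29 ± 0.047, adjusted p = 6.82e-06), a small change with little spread.

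**Figure D2:**
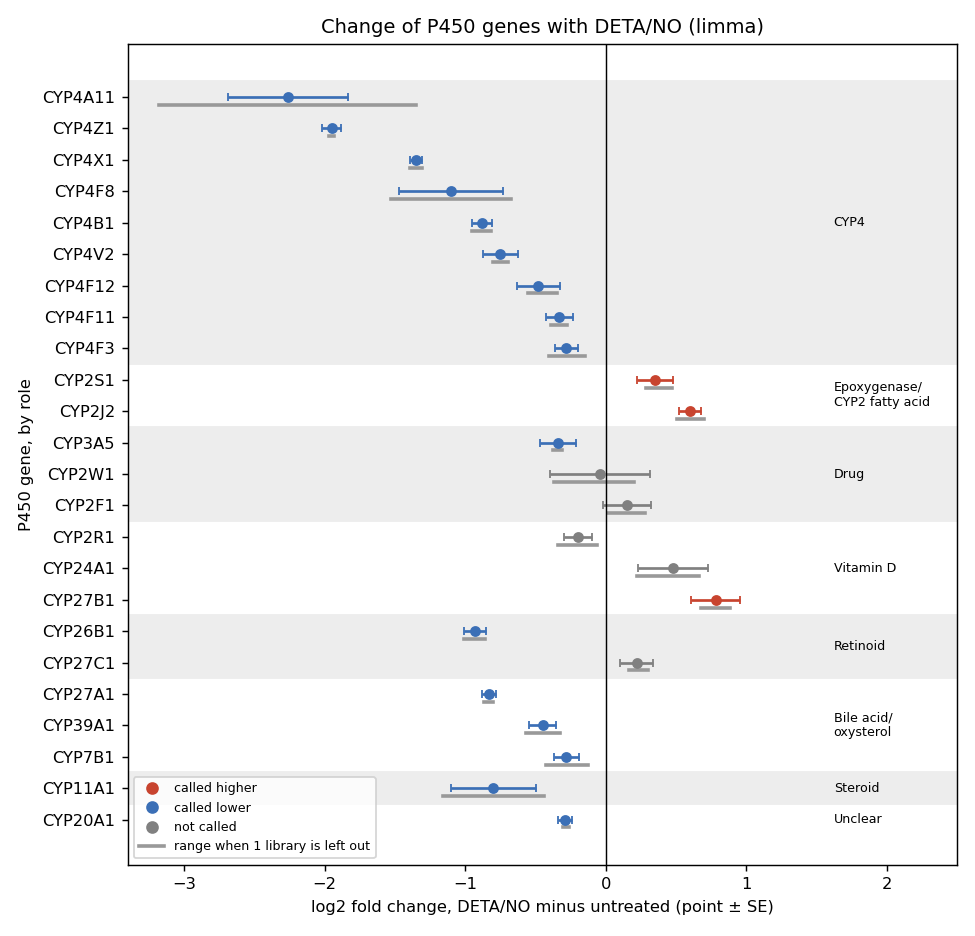
Log2 fold change of each tested P450 gene (x axis, DETA/NO minus untreated; point ± SE from limma), by role, with a grey bar for the range when 1 library is left out. CYP4Z1 (-1.95) and CYP4X1 (-1.35) have short grey bars, while that of CYP4A11 reaches from -3.18 to -1.35.

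Of the 19 called members, 11 kept their call in every alternative run and none changed direction. The 9 lower ones were CYP4X1, CYP4Z1, CYP4B1, CYP4V2, CYP4F11, CYP27A1, CYP26B1, CYP39A1 and CYP20A1, and the 2 higher ones were CYP2J2 and CYP27B1.

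The order of the levels also moved. Values are compared here as normalized reads per kb of annotated exon. CYP4X1 led in the untreated cells at 1327 ± 47.8 (SD, n = 3), followed by CYP27A1 at 606 ± 25.4, CYP20A1 at 522 ± 15.3 and CYP4Z1 at 508 ± 13.3. CYP20A1 and CYP4Z1 did not differ beyond their spread. With DETA/NO, CYP4X1 still led at 520 ± 20.5 (SD, n = 2), then came CYP20A1 at 428 ± 4.35, CYP27A1 at 341 ± 3.63 and CYP2J2 at 199.9 ± 19.1. CYP4Z1 went from rank 4 to rank 7, CYP26B1 from 8 to 13 and CYP2J2 from 7 to 4. At ranks 5 to 7 with DETA/NO, CYP7B1 (143 ± 21.2), CYP4B1 (139 ± 8.89) and CYP4Z1 (131 ± 2.73) lay within each other's spread.

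**Figure D3:**
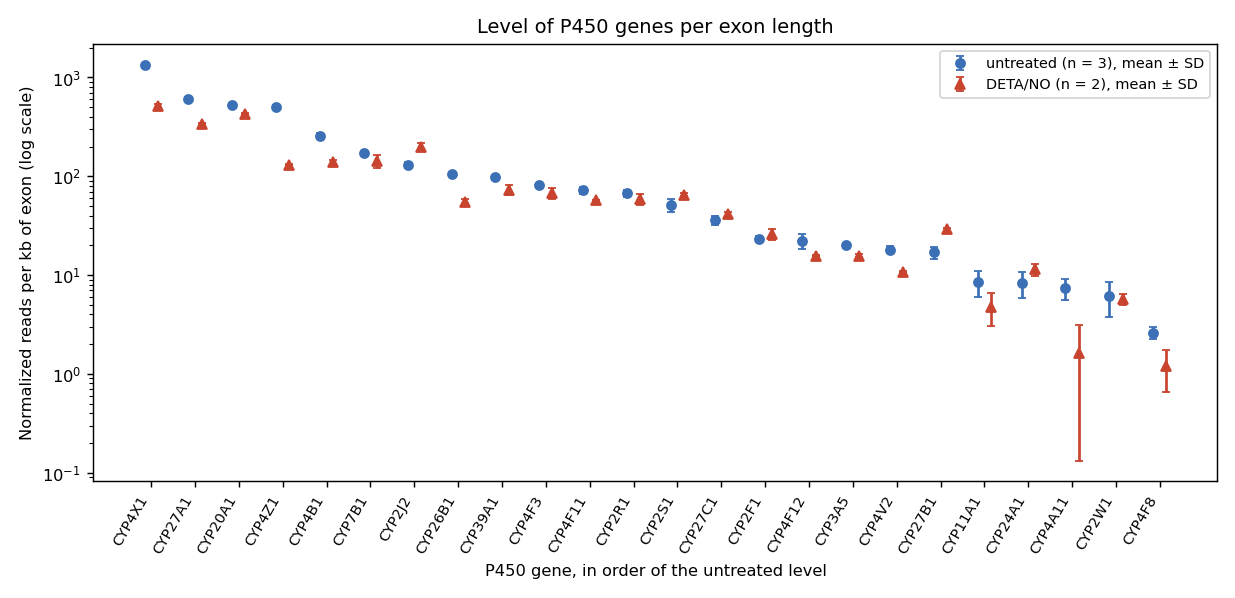
Normalized reads per kb of exon (log axis; mean ± SD) of the tested P450 genes, in order of the untreated level, for untreated (circles, n = 3) and DETA/NO libraries (triangles, n = 2). CYP4X1 is highest in both groups, and CYP4Z1 drops from 508 to 131 while CYP2J2 goes from 131 to 199.9.

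The 15 members under a mean of 10 had values from 0 to 15.5 in any library. Among them were CYP1A2, CYP2A13, CYP2B6, CYP2C8, CYP2E1, CYP3A4, CYP3A43, CYP4F2, CYP4F22, CYP7A1, CYP17A1, CYP19A1, CYP21A2 and CYP46A1. In a fit without the filter 1 of them was called. CYP1A2, a liver enzyme that the aryl hydrocarbon receptor is known to induce, had 1, 0 and 0 reads in the untreated libraries and 5 and 5 in the DETA/NO libraries (adjusted p = 0.00144). The related CYP1A1 and CYP1B1, which the rule leaves out, were higher too. CYP1A1 had 44.9, 31.4 and 36.0 against 309 and 294 (log2 fold change 2.99, adjusted p = 5.59e-16), and CYP1B1 had 9109, 8677 and 7834 against 15268 and 15438 (0.85, adjusted p = 3.23e-05). CYP51A1, of cholesterol synthesis, was listed at 0.

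A listed 0 may not speak to expression. The 13 members at 0 were CYP2A6, CYP2A7, CYP2C18, CYP2C19, CYP2D6, CYP2U1, CYP3A7, CYP4A22, CYP8B1, CYP11B1, CYP11B2, CYP26A1 and CYP26C1. Other annotated genes cover 67.5% to 100% of the span of each, and 100% of that of CYP51A1. All 12 members with at least 80% of their span covered were at 0. CYP1B1, left out by the rule, was not: 85.3% of its span is covered, and it had 7834 to 15438 normalized reads. Among all protein-coding genes matched by name, 72.7% of the 2876 with at least 80% covered were listed at 0. With 50% to under 80% covered, the class of CYP26C1, it was 8.6% of 907. It was 1.74% of the 8815 with above 0 but under 50% covered, and 14.2% of the 7062 with no base covered. The share therefore did not rise evenly with coverage. Among tested members the largest covered share was 53.9%, in CYP11A1. Among all members above 0 it was 70.5%, in CYP19A1, which had at most 1 read in a library. That share lies inside the range of the members at 0. This comparison was chosen after the values were seen.

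Promoters were examined as the 250 bases before the start site in RefSeq (GRCh38.p14), which matched 37 of the 52 members. The windows of CYP4Z1 and CYP4F11, which were lower, and of CYP2J2, which was higher, are printed because they show how unlike the starts of members with firm changes are. Each reads 5′ to 3′ on the strand of the gene, with matches to a searched motif in capitals.
CYP4Z1, chr1:47066981-47067230, plus strand: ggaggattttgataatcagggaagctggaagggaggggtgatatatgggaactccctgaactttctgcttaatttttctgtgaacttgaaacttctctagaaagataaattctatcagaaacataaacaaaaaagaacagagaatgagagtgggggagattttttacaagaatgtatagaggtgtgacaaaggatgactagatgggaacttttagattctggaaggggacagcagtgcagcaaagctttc
CYP4F11, chr19:15934868-15935117, minus strand: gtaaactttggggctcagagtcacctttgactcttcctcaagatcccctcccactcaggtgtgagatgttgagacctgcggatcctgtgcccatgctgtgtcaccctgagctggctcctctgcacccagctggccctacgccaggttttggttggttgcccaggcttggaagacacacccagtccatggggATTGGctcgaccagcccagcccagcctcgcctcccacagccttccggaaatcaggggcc
CYP2J2, chr1:59926774-59927023, minus strand: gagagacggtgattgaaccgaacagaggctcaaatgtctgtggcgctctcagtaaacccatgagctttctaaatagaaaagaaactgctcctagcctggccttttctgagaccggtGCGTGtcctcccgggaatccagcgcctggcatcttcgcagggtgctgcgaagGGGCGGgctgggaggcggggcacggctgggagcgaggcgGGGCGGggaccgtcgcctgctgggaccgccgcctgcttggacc

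The motifs were the TATA box (TATAAA), the CCAAT box (CCAAT), the GC box (GGGCGG), the half-site of nuclear receptors (AGGTCA), the core of the aryl hydrocarbon receptor site (GCGTG) and the AP-1 site (TGACTCA), each on both strands, and matches may share bases. CYP4Z1 held none of them and had 39.2% GC and 0 CpG. CYP4F11 held 1 inverted CCAAT box (60.4% GC, 5 CpG). CYP2J2 held 2 GC boxes and 1 GCGTG core (63.2% GC, 19 CpG). In the same order, the motifs stood in 13, 16, 14, 11, 7 and 0 of the 37 members, against 10.7%, 32.0%, 42.6%, 12.1%, 32.2% and 4.2% of 35116 promoters. Of the 18 promoters of members with a mean of at least 10, 2 held TATAAA and the median GC was 61.6%. Of the 19 others, 11 held it and the median GC was 53.6%. A match is a string of letters and not a bound site.

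Genes that work with P450s were examined in 5 lists. Of 49 tested genes, 16 were lower (32.7%) and 9 higher (18.4%), beside 21.7% each way over all genes. Among 11 tested redox partners, which pass electrons to P450s, 1 was higher and 1 lower. P450 oxidoreductase, POR, had 2004, 2073 and 2091 against 1938 and 1905 (log2 fold change -0.10, adjusted p = 0.0592) and was not called. FDX1, the ferredoxin of mitochondrial P450s, was lower by a small amount (-0.13, adjusted p = 0.0261) and CYB5R2, a cytochrome b5 reductase, was higher (0.24, adjusted p = 0.00571).

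Those redox calls turned on single libraries. Omitting DETA/NO library 1-2, untreated library 1 or untreated library 2 left 0 lower, and omitting either library 3 gave 2 lower. The number higher was 0 when DETA/NO library 3 was omitted and 2 without untreated library 3. For FDX1 the adjusted p was 0.376 when DETA/NO library 1-2 was omitted, 0.105 without untreated library 1 and 0.0746 without untreated library 2 (range 0.00729 to 0.376). CYB5R2 had 0.0503 without DETA/NO library 3 (range 9.43e-04 to 0.0538).

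Nuclear receptors that control P450 genes were higher in 3 and lower in 2 of 12 tested. NR3C1, the glucocorticoid receptor, had 3393, 3268 and 3249 against 4351 and 4480 (log2 fold change 0.42, adjusted p = 2.59e-11). VDR, the receptor of the hormone that CYP27B1 makes, had 2094, 2115 and 2113 against 2467 and 2540 (0.25, adjusted p = 5.57e-06). The groups did not overlap in either. RXRB, a shared partner receptor, was lower (-0.21, adjusted p = 3.71e-04), as was PPARA, the receptor known to induce CYP4A genes (-0.12, adjusted p = 0.00926). RARG was higher (0.12, adjusted p = 0.0357).

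For PPARA the adjusted p was 0.0541 when DETA/NO library 1-2 was omitted and 0.0609 without untreated library 1 (range 0.00154 to 0.0885), and either omission left 1 receptor lower. RARG lost its call on omission of DETA/NO library 1-2 (0.0994) or 3 (0.121), or of untreated library 1 (0.136) or 2 (0.172), with a range of 0.0017 to 0.196. The xenobiotic receptor NR1I2 had at most 3.32 normalized reads.

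Retinoid handling genes were lower in 6 and higher in 3 of 10 tested. ALDH1A1, which makes retinoic acid, had 615, 673 and 664 against 386 and 361 (log2 fold change -0.80, adjusted p = 9.5e-11). STRA6, a retinol transporter, was lower by the model as well (-0.49, adjusted p = 1.69e-10), and so was DHRS3, a retinal reductase (-0.28, adjusted p = 6.53e-08). STRA6 and DHRS3 are known, like CYP26B1, as genes that retinoic acid induces. The other ALDH1A genes went the opposite way. ALDH1A2 had 841, 855 and 815 against 1058 and 1129 (0.38, adjusted p = 1.23e-06). ALDH1A3 was higher (0.19, adjusted p = 0.0172), as was LRAT, which esterifies retinol (0.35, adjusted p = 0.0208). The retinoic acid receptor gene RARB was not called (-0.23, adjusted p = 0.181). Genes were named as induced by retinoic acid only among those that were lower. The 3 higher genes were not sorted by this property. Whether the response to retinoic acid changed was not tested.

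ALDH1A3 was not called without DETA/NO library 3 (log2 fold change 0.05, adjusted p = 0.624) or without untreated library 1 (0.065) or 2 (0.0523), with a range of 7.07e-05 to 0.624. LRAT was not called without untreated library 1 (0.0749) or DETA/NO library 1-2 (0.22, adjusted p = 0.277), with a range of 0.00668 to 0.277. Without untreated library 1 the list had 1 gene higher.

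Of 10 tested epoxide and eicosanoid enzymes, 4 were lower and 1 higher. EPHX1 and EPHX2 are the microsomal and soluble epoxide hydrolases, and EPHX2 is known to remove the epoxides that CYP2J2 makes. EPHX2 had 108, 130.5 and 142 against 73.1 and 68.4 (log2 fold change -0.83, adjusted p = 3.67e-05), while CYP2J2 was higher. EPHX1 had 2253, 2177 and 2154 against 1616 and 1620 (-0.44, adjusted p = 3.38e-10). Both genes were separate between groups. PTGES, a prostaglandin synthase, was lower (-0.17, adjusted p = 0.00135; 0.0794 without DETA/NO library 1-2, range 1.45e-04 to 0.116), and PTGR1, a prostaglandin reductase, was higher (0.50, adjusted p = 2.41e-06).

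Steroid and oxysterol enzymes were lower in 3 and higher in 1 of 6 tested. STS, the steroid sulfatase, had 5544, 5276 and 5087 against 4118 and 4206 (log2 fold change -0.35, adjusted p = 1.71e-09). HSD11B2, which inactivates cortisol, was lower (-0.39, adjusted p = 8.92e-04), as was HSD17B2, which inactivates estradiol (-0.75, adjusted p = 0.00379; 0.0559 without DETA/NO library 1-2, range 8.61e-04 to 0.0559). SRD5A3 was higher (0.50, adjusted p = 0.00319).

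**Figure D4:**
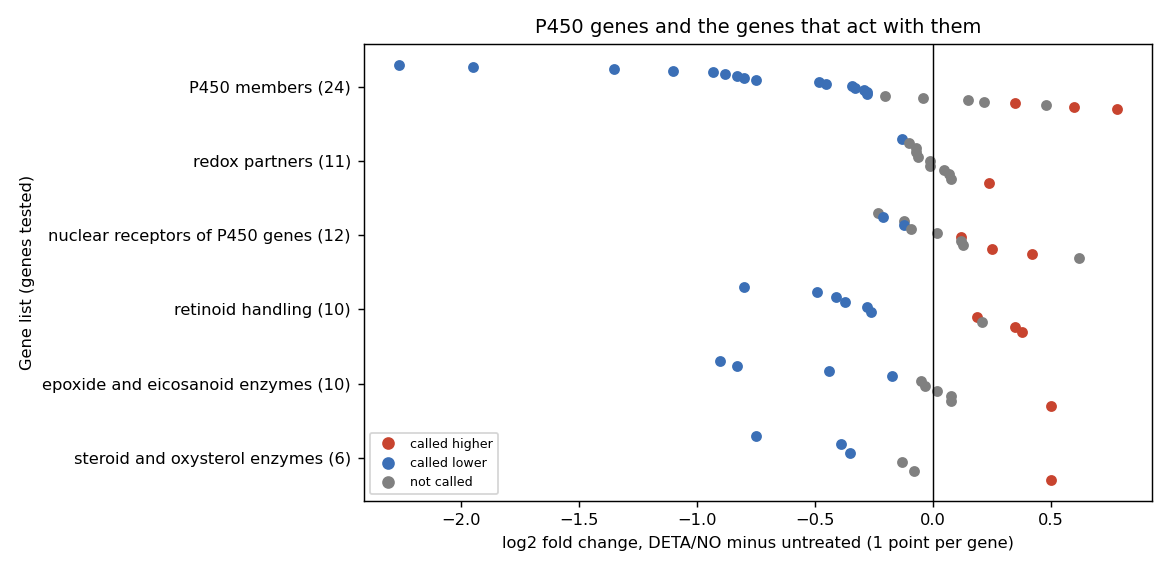
Log2 fold change (x axis, DETA/NO minus untreated) of the 24 tested P450 genes and of the tested genes in 5 lists that act with them, 1 point per gene, coloured by call. The P450 points reach from -2.26 to 0.78, and 1 of 11 redox partners is called in each direction.

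Libraries held 28897422 to 34637343 recovered reads, the lowest in DETA/NO library 1-2. Between the DETA/NO libraries the median gap (log2) was 0.14 over the tested members and 0.08 over all genes tested. All 6 markers of epithelium and of this line had a mean of at least 10. Their summed values were 336636 to 338402 untreated and 360011 to 364232 with DETA/NO (1 higher, 1 lower). EGFR made up most of these sums and was the higher one, with means of 222201 and 246909. KRT19 was lower (means 36626 and 32320), and EPCAM, CDH1, KRT8 and KRT18 were not called. Of 6 hepatocyte markers, 2 reached a mean of 10 and 1 was lower, TF, with APOA1 and APOB at 0. The sums were 1050 to 1062 and 444 to 481, and TF made up most of them (means 903 and 279). CD14 (means 939 and 423) made up most of the sums of the 4 immune markers, 925 to 982 and 431 to 492. Of these 4, 2 reached a mean of 10, with CD14 lower and PTPRC higher. All 3 endothelial markers reached it and CDH5 was higher (172 to 180 and 255 to 291), and 1 of 3 fibroblast markers did and was higher, COL1A1 (573 to 633 and 838 to 845). Of 3 adipocyte markers 1 reached it and was lower, PLIN1, with FABP4 at 0 (44.0 to 70.6 and 39.9 to 41.8), and of 4 markers of steroid-making cells 1 did and was not called (158 to 167 and 150 to 160). The part of these markers in the P450 results was not tested. All libraries come from a single cell line, so these markers do not count cells of other types. In bulk RNA, fewer cells that express a gene and less RNA per cell cannot be told apart.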

How the data were processed

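The members and gene lists were chosen with earlier results of these data known. The authors deposited 1 normalized count per gene and sample (a signal, not raw counts). Alignment with TopHat2 2.1.1 and Bowtie2 2.5.0.0, counting with featureCounts 2.0.3 and normalization tools DESeq2 1.38.3 under R 4.2.2 are named, with GRCh38, per the submitters' processing notes, which give no order. Annotation and strand setting: not given in the sources used here. Within each library 100% of values were whole reads times 1 factor (tolerance 0.01), so reads could be recovered. Per the files, 27 row names had become dates (0.246% of reads); they stayed in the tests.

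The test was limma 3.58.1 in R 4.3.3 on log2(value + 1), using eBayes with trend and robust options, on genes with a mean of at least 10, adjusted over all of them by Benjamini-Hochberg and called under 0.05. Checks used edgeR 4.0.16 and DESeq2 1.42.0 on recovered reads, other pseudocounts, filters and scaling, a replicate block, the identical files kept as 2 samples, and each library left out. Scripts were tested on simulated data. Python 3.11.15 and pandas 2.3.3 were used elsewhere. Named were the members, the 3 P450 genes left out, other genes in the clusters and called markers. From each list up to 3 called rises and 3 called falls were named. POR, NR1I2, RARB and some markers that were not called were added after their values were seen. Positions and overlaps are from GENCODE 29. Of the members with a mean under 10, 1 is not reported here.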

Additional observations from a re-analysis of the deposited data

How the results depend on the processing

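Across 16 alternatives the number of members lower was 13 to 16 except under limma without trend and robust options and under DESeq2, each with 10, and with 1 library left out it was 13 to 15. The number higher was 2 to 4. CYP4 members lower were 5 under limma without trend and robust options, where all genes higher were 2262 and list genes higher 4; the cause was not tested. CYP2W1, which was not called, turned to 0.20 with a replicate block that takes the shared library as number 2, and ran from -0.37 to 0.20 with 1 library left out. A replicate block gave 16 members lower and 3 higher with the shared library as number 1, and 15 and 2 as number 2. The header of the shared library is NOB and that of DETA/NO library 3 is NOC, so number 2 is the likelier one. The block added calls for CYP2R1 (adjusted p = 0.0366) and CYP24A1 (0.0346) as number 1, and CYP2S1 and CYP3A5 lost theirs under both numberings. Correlations of same-numbered deviations were 0.0293, 0.00106 and 0.0301. With 2 DETA/NO libraries the deviations mirror each other, so these values are not independent and cannot show whether samples were paired. Without trend and robust options CYP4A11 (0.0535), CYP4F8 (0.0508), CYP4F12 (0.0734), CYP4F3 (0.0829), CYP7B1 (0.119) and CYP11A1 (0.144) lost their call, as did CYP2S1 (0.119). Under DESeq2 the calls of CYP3A5, CYP4F3, CYP4F8, CYP4F12, CYP7B1 and CYP11A1 were lost, and that of CYP2S1 too. Depth limits members such as CYP4A11 and CYP4F8, with 2 to 11 reads in a DETA/NO library.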
